A study of Sus scrofa with 70 samples.

Results

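The choice between isoforms of one gene was compared between the Banna mini-pig inbred line (BMI) and the Diannan small-ear pig (DSE) in the 3 accessory sex glands of boars: the vesicular gland (VG), the prostate gland (PG) and the bulbourethral gland (BG). The measure was the share of an isoform in percent, its TPM (transcript abundance scaled for length and library size) divided by the summed TPM of all isoforms of its gene. Genes entered when they had 2 or more transcripts and a gene TPM of 5 or more in all 18 short-read libraries of these glands. Of 35552 annotated genes, 16170 had 2 or more transcripts and 4807 met both conditions. These genes held 44045 isoforms above 0 in at least 1 library.

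The series profiled 5 reproductive organs of both breeds with short-read RNA-seq, long-read isoform sequencing (Iso-seq) and small RNA-seq, and 18 of its 30 RNA-seq libraries came from accessory glands. Each breed and gland had 3 RNA-seq libraries and 1 Iso-seq library. BMI is an inbred line derived from DSE by repeated mating of full siblings and of parents with offspring, and all donors were boars of 12 months. The labels do not say which libraries came from the same boar, so p-values measure only the spread between these libraries.

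Most multi-exon genes yield several mRNAs, because exons can be joined in different ways and transcription can start and end at different sites. The isoforms of a gene can differ in the encoded protein, or only in untranslated sequence that bears on the stability and translation of the mRNA. Accessory glands are secretory epithelia wrapped in smooth muscle, and their secretions form most of the fluid of the ejaculate.

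Before the breeds were compared, the libraries were set against their labels. All 14 markers of secretory epithelium were detected in every gland, with a summed level of 2190 to 4910 TPM in BMI and 1600 to 4780 TPM in DSE. Summed smooth muscle markers had a median of 615 TPM in BMI and 2070 TPM in DSE, with overlapping ranges, and DSE prostate libraries (2070 to 4400 TPM) lay above 2 of the 3 BMI prostate libraries. Within the vesicular gland the breeds did not overlap for secretory epithelium (2190 to 2570 TPM in BMI, 1600 to 1900 in DSE), fibroblast (818 to 1720 and 243 to 641) and skeletal muscle markers (0.855 to 3.61 and 4.84 to 18.2). Within the prostate gland they did not overlap for T cell and macrophage markers (medians of 41.3 TPM in BMI and 74.3 TPM in DSE) and for plasma and B cell markers, where all DSE libraries, at 15.4 to 18.9 TPM, lay above all BMI libraries. Skeletal muscle markers reached 454 TPM in BMI_BG_1 and 1680 TPM in DSE_BG_3, against at most 36.0 TPM in the other libraries. In these bulk samples, fewer cells of a type and less RNA per cell cannot be told apart, and the part of cell composition in the isoform shares was not tested. One library stood apart from its label: the log TPM values of BMI_PG_2 had a mean correlation of 0.969 with the vesicular gland libraries and 0.955 with the other prostate libraries. A further 5 libraries (BMI_PG_3, DSE_BG_2, DSE_VG_1, BMI_VG_1 and BMI_BG_1) had a mean correlation of isoform shares with the other libraries below 0.88, from 0.795 to 0.872. In the quality statistics of the study the same libraries have the lowest transcript integrity of the accessory gland RNA-seq libraries, and the part of RNA integrity in the shares was not tested. Results are therefore also given without these libraries.

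Isoform shares differed between the breeds for a small set of isoforms. With gland as a block, 83 isoforms (0.188% of the 44045 tested) passed an adjusted p of 0.05 with a difference of 10 percentage points or more, and they belonged to 63 genes (1.31% of 4807). Of these isoforms, 43 had a higher share in DSE (0.0976%) and 40 a lower share (0.0908%). Differences ran from 10.1 to 61.4 points with a median of 19.1 points, and 38 isoforms reached 20 points. When shares were first averaged over the glands for each breed and replicate number, 3 values against 3, limma called 0 isoforms, and 2794 had an unadjusted p below 0.05, among them all 83. In 19 genes one isoform rose while another fell, 24 genes had only isoforms that rose in DSE, and 20 had only isoforms that fell.

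For 45 of the 83 isoforms the 9 BMI and 9 DSE libraries did not overlap. Over all isoforms tested, 103 had no overlap (0.234%), and 48 of those also lay 10 points apart (0.109%). Among the 83, with a mean of 10% or more in the other breed, 11 isoforms stayed below 5% in every BMI library and 7 in every DSE library. Without BMI_PG_2, 85 isoforms passed (0.194% of 43912), of which 77 were among the 83. Without the 5 libraries of low correlation 81 passed, 47 of them shared with the 83, and without all 6 libraries 51 passed, 33 of them shared.

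The breeds used a similar number of isoforms per gene. The median effective number of isoforms, the exponential of the Shannon entropy of the shares, was 2.27 ± 0.0515 (SD, 9 libraries) in BMI and 2.24 ± 0.0364 in DSE. The difference of -0.0238 did not exceed the spread between libraries (exact permutation within glands, two-sided p = 0.283).

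All 63 genes were tested at the gene level, on log2(TPM + 1), and 5 had an adjusted p below 0.05, against 300 of the 15115 genes tested (1.98%). A log2 difference of 1 or more was reached by 1 of the 5, and by 92 of the 300 (0.609% of those tested). These 5 were NDOR1, DHRS1, HSF2BP and 2 genes without a symbol, named here after their values were seen. The largest of these differences was that of ENSSSCG00000060989, with a median of 27.4 TPM in BMI and 92.4 TPM in DSE (log2 difference 1.70, SE 0.246, adjusted p = 0.000698). This gene overlaps SLA-1 and SLA-5, and the assignment of reads among such genes is uncertain, as described below. It had 0 counted Iso-seq reads in both breeds. DHRS1, a dehydrogenase of the short-chain family, had a median of 61.4 TPM in BMI and 117 TPM in DSE, a log2 difference of 0.62 (SE 0.138, adjusted p = 0.0207). The median absolute log2 difference was 0.20 over the 63 genes and 0.15 over all genes tested.

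**Figure D1:**
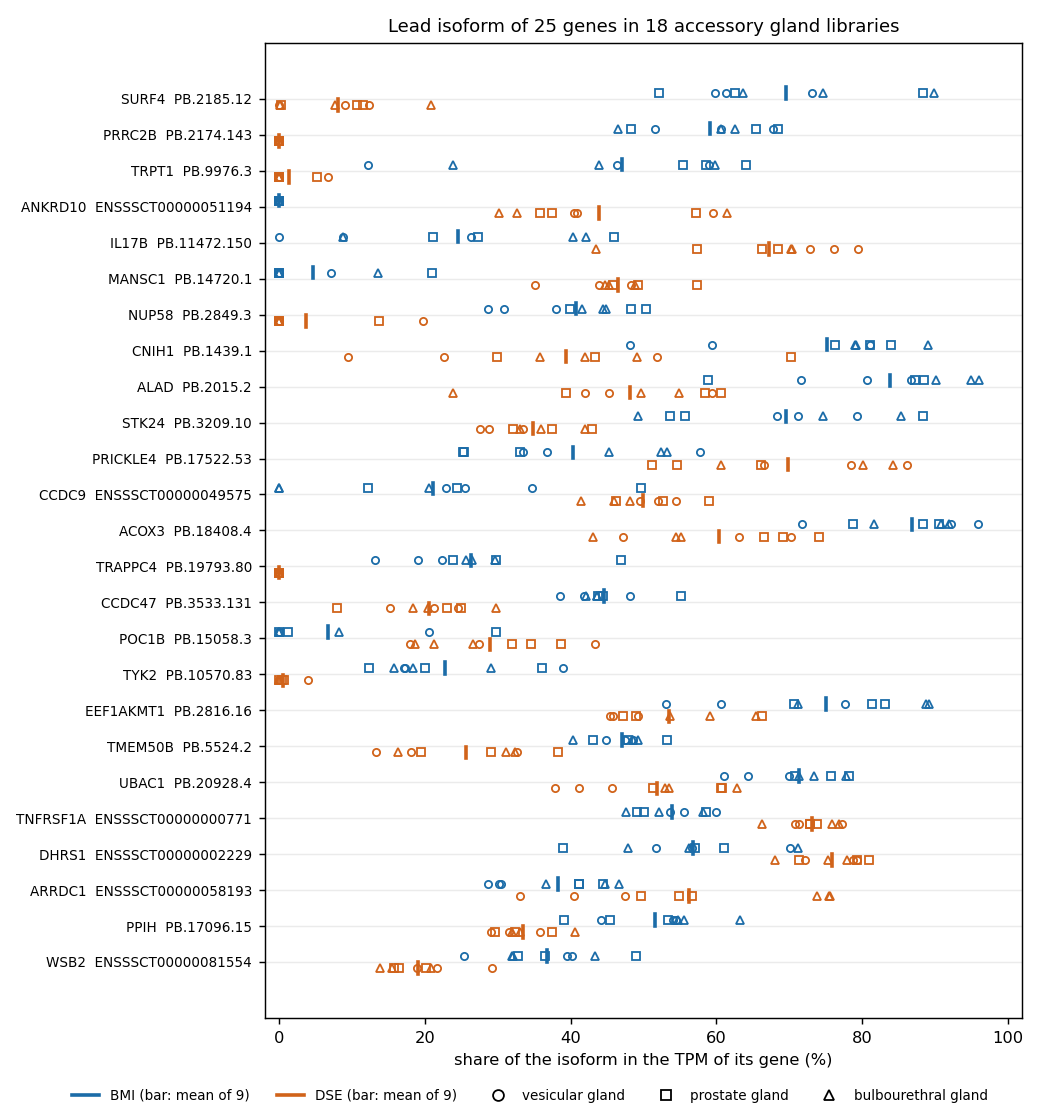
Share of the isoform with the largest breed difference (horizontal axis, percent of the gene's TPM) in each of 25 genes, with 1 symbol for each of 18 libraries, colour for breed and shape for gland; vertical bars are the means of 9 libraries. The symbols of the breeds are fully apart in 12 genes, among them SURF4, PRRC2B, ANKRD10, TRAPPC4 and TNFRSF1A.

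The 25 genes with a symbol and the largest differences were examined one by one. Their leading isoform was lower in DSE in 16 genes and higher in 9. An isoform of the same gene with the largest move in the other direction was taken as its counterpart, and 10 of the 25 counterparts passed the test as well. The paired isoforms had the same annotated coding positions in 7 genes and different ones in 18, one of which, PRICKLE4, has none annotated for its leading isoform. In PPIH, also among the 18, the coding positions differ only by the placement of an intron. It is shifted by 2 bases that read AG in either place, so the spliced coding bases are the same. The 6 stretches of genome below show 1 segment each by which the paired isoforms of a gene differ, and some pairs, such as those of CCDC47 and MANSC1, differ by further segments. The stretches were read from the RefSeq sequence of Sscrofa11.1, 5′ to 3′ on the strand of the gene, and capitals mark the bases that one isoform of the pair has and the other lacks.
SURF4, chr1:272975924-272975952, minus strand: cccactcggaaTGAGGCCcgccttggagc
PRRC2B, chr1:271399973-271400032, plus strand: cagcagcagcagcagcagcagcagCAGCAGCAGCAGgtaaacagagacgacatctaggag
MANSC1, chr5:60082566-60082595, plus strand: gaGCGACGTACATTTCCCCAAAGGAAGGgc
CCDC9, chr6:53069188-53069460, plus strand: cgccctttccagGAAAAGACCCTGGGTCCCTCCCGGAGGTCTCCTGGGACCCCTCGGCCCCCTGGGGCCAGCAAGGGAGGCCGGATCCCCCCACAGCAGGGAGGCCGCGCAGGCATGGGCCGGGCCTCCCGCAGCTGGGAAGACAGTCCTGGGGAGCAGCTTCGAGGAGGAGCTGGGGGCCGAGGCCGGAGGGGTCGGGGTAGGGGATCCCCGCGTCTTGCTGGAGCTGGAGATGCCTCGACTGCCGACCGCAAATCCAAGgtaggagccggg
TNFRSF1A, chr5:64327164-64327316, plus strand: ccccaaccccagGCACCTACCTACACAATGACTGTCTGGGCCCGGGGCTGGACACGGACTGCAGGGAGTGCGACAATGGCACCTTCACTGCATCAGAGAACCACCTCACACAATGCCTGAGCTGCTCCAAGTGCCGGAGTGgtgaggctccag
CCDC47, chr12:15172836-15172967, plus strand: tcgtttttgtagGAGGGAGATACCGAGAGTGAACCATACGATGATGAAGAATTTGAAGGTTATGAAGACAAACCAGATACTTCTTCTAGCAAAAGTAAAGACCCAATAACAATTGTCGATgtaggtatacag

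The PRRC2B stretch is the 3′ end of an exon that closes on a run of CAG triplets, followed by its intron. PRRC2B encodes a large RNA-binding protein that takes part in translation initiation. Its isoform PB.2174.143, whose exon stops 12 coding bases short of the Ensembl splice site, had shares of 46.5% (lowest), 60.7% (median) and 68.4% (highest) in the BMI libraries and was at 0 in every DSE library. The difference was -59.1 points (SE 3.06, adjusted p = 5.55e-08). Its counterpart ENSSSCT00000006285, which holds the 12 bases, lay between 0 and 2.90% in BMI and between 22.8% and 71.0% in DSE, a difference of 53.3 points (SE 5.49, adjusted p = 0.000168). The libraries of the breeds did not overlap for either isoform. By Iso-seq, neither isoform had a read in these glands (0 of 7 PRRC2B reads in BMI and 0 of 17 in DSE). Over all isoforms of PRRC2B that reach this exon end, the 12 bases were included in 0.81% to 4.36% of the TPM in BMI and in 60.2% to 87.1% in DSE.

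SURF4, a cargo receptor that carries secreted proteins out of the endoplasmic reticulum, showed the largest difference among genes with a symbol. PB.2185.12 made up 52.1%, 63.6% and 89.9% (lowest, median, highest) of SURF4 in BMI and 0, 8.98% and 20.8% in DSE. All BMI libraries lay above all DSE libraries, and the difference was -61.4 points (SE 4.96, adjusted p = 1.36e-05). PB.2185.1, with the same coding sequence, had a median of 7.15% in BMI and 44.5% in DSE (41.8 points, SE 7.22, adjusted p = 0.0143). The isoforms differ only by 7 bases outside the coding sequence, the capitals TGAGGCC, which PB.2185.12 leaves out as a gap between exons. These bases were present in 7.60% to 12.8% of SURF4 TPM in BMI and 45.0% to 100% in DSE.

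MANSC1 encodes a membrane protein with a MANSC domain. PB.14720.1 had a median of 0 and a highest share of 21.0% in BMI, and lay between 35.1% and 57.4% in DSE (41.9 points, SE 3.26, adjusted p = 1.11e-05). PB.14720.4, with the same coding sequence, moved the other way. It adds a 26-base exon and 74 bases at the end of an exon ahead of it, and lacks 117 bases at the transcript start, all outside the coding sequence. It lay between 23.7% and 49.9% in BMI and did not exceed 0.684% in DSE (-38.0 points, SE 3.50, adjusted p = 6.29e-05). Neither isoform overlapped between the breeds.

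TRAPPC4 is a subunit of the tethering complex that receives vesicles at the Golgi. Its isoform PB.19793.80, which lacks 312 bases at the end of an exon and codes for a shorter protein, lay between 13.1% and 46.9% in BMI with a median of 25.7%, and was at 0 in all DSE libraries (-26.3 points, SE 2.88, adjusted p = 0.00027). The longer PB.19793.82 had medians of 56.9% in BMI and 74.9% in DSE (20.5 points, SE 3.89, adjusted p = 0.0268), with overlap, and missed the threshold when any of 10 libraries was left out (adjusted p up to 0.0648).

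CCDC47 takes part in the insertion of membrane proteins at the endoplasmic reticulum. PB.3533.131 had shares of 38.6%, 43.6% and 55.1% (lowest, median, highest) in BMI and 7.87%, 21.2% and 29.8% in DSE, without overlap (-24.0 points, SE 2.96, adjusted p = 0.000845). It differs from its counterpart PB.3533.133 by a coding exon of 108 bases, a multiple of 3, and by 22 noncoding bases at a 3′ splice site, and holds both. Over all isoforms, inclusion of the 108-base exon ran from 79.5% to 100% in BMI and from 72.6% to 85.7% in DSE, with overlap. Inclusion of the 22 bases ran from 43.6% to 55.1% in BMI and from 16.7% to 30.6% in DSE, without overlap.

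CNIH1 is a cargo adaptor of vesicles that leave the endoplasmic reticulum. PB.1439.1 had a median of 79.1% in BMI and 42.0% in DSE (-35.9 points, SE 6.17, adjusted p = 0.0139), and the libraries overlapped. Its counterpart PB.1439.2, which lacks 304 bases outside the coding sequence, was at 0 in every BMI library and between 0 and 45.1% in DSE, with a difference of 22.3 points that missed the threshold (adjusted p = 0.191).

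TNFRSF1A is a receptor for tumour necrosis factor. ENSSSCT00000000771 had shares of 47.6%, 53.7% and 59.9% (lowest, median, highest) in BMI and 66.2%, 72.9% and 77.3% in DSE, without overlap (19.2 points, SE 2.10, adjusted p = 0.00027). ENSSSCT00000102588, which skips a coding exon of 129 bases, fell from a median of 43.1% in BMI to 24.8% in DSE (-18.6 points, SE 2.50, adjusted p = 0.00164). When shares were taken only within Iso-seq isoforms and Ensembl transcripts fully matched by one, a set without ENSSSCT00000000771, the ENSSSCT00000102588 difference was -1.47 points (adjusted p = 0.747). The exon was included in 49.3% to 63.1% of the TPM in BMI and 66.9% to 78.8% in DSE.

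TYK2, a Janus kinase used by interferon and interleukin receptors, had PB.10570.83 at 12.3% to 39.0% in BMI and at 0 to 3.93% in DSE (-22.2 points, SE 3.35, adjusted p = 0.00484). STK24, a sterile 20-like kinase, had PB.3209.10 at 49.3% to 88.4% in BMI and 27.6% to 42.9% in DSE (-34.7 points, SE 5.22, adjusted p = 0.00481). Neither kinase overlapped between the breeds. IL17B, a cytokine of the interleukin 17 family, had PB.11472.150 at a median of 26.3% in BMI and 70.2% in DSE with overlapping ranges (42.7 points, SE 6.73, adjusted p = 0.00682). The IL17B difference was 64.5 points in the vesicular gland, 32.5 in the prostate gland and 31.0 in the bulbourethral gland, and the interaction of breed and gland did not pass (adjusted p = 0.901).

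ALAD catalyses an early step of haem synthesis. PB.2015.2 had a median share of 87.2% in BMI and 49.7% in DSE (-35.7 points, SE 5.74, adjusted p = 0.00793), and PB.2015.1, which adds a noncoding exon of 119 bases, had 11.7% and 49.6% (34.9 points, SE 5.82, adjusted p = 0.0109). The ranges overlapped for both, since BMI_PG_3 lay at 58.8% for the first isoform and 40.3% for the second. ACOX3, a peroxisomal oxidase of branched fatty acids, had PB.18408.4 at a median of 90.6% in BMI and 63.1% in DSE, with overlap (-26.6 points, SE 4.26, adjusted p = 0.00766). TRPT1, a phosphotransferase of tRNA splicing, had PB.9976.3 at 12.2% to 64.0% in BMI and 0 to 6.72% in DSE (-45.7 points, SE 5.80, adjusted p = 0.00105). This isoform runs past the end of its counterpart, at position 7888134, to position 7962330 through pieces of 4 to 132 bases. It had 1 Iso-seq read in BMI and 0 in DSE.

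EEF1AKMT1, a methyltransferase of elongation factor 1A, had an isoform with an additional, partly coding exon of 218 bases in DSE. This PB.2816.15 did not exceed 0.629% in BMI and lay between 9.41% and 27.7% in DSE (17.4 points, SE 1.86, adjusted p = 0.000242). Its main isoform PB.2816.16 fell from a median of 77.6% in BMI to 49.3% in DSE, with overlap (-21.6 points, SE 3.85, adjusted p = 0.0183). DHRS1, a gene whose level also rose, had ENSSSCT00000002229 at overlapping shares with medians of 56.6% in BMI and 77.9% in DSE (19.1 points, SE 3.81, adjusted p = 0.0360), and missed the threshold when any of 13 libraries was left out (adjusted p up to 0.0871). PPIH, a cyclophilin of the spliceosome, had PB.17096.15 at medians of 54.1% in BMI and 32.4% in DSE, with overlap (-18.1 points, SE 2.71, adjusted p = 0.0047).

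The largest switches in the remaining genes were in ANKRD10 and NUP58. ANKRD10 encodes an ankyrin repeat protein, and its isoform ENSSSCT00000051194 was at 0 in all 9 BMI libraries and between 30.1% and 61.5% in DSE (43.9 points, SE 4.24, adjusted p = 8.06e-05). PB.3292.9, with the same coding sequence and 29 further bases, fell by 34.9 points (SE 6.82, adjusted p = 0.0320), and missed the threshold when any of 13 libraries was left out (adjusted p up to 0.0726). NUP58 is a component of the central channel of the nuclear pore. PB.2849.3, with a noncoding exon of 160 bases, had a range of 28.6% to 50.4% in BMI and of 0 to 19.8% in DSE (-37.0 points, SE 3.56, adjusted p = 8.06e-05). Its counterpart ENSSSCT00000052216 rose by 17.5 points (SE 3.52, adjusted p = 0.0385), a call lost when any of 13 libraries was left out (adjusted p up to 0.0927).

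CCDC9 encodes an RNA-binding coiled-coil protein. ENSSSCT00000049575 had a median of 22.9% in BMI and 49.5% in DSE (28.8 points, SE 4.68, adjusted p = 0.00861), and BMI_PG_2, at 49.7%, was the only BMI library within the DSE range of 41.4% to 59.0%. The 249-base coding exon of CCDC9 was included in 31.2% to 67.3% of the TPM in BMI and 79.5% to 92.3% in DSE, without overlap. PRICKLE4, of the planar polarity family, had PB.17522.53 at medians of 36.8% in BMI and 66.5% in DSE, with overlap (29.5 points, SE 4.20, adjusted p = 0.00299).

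Smaller differences were found in TMEM50B, UBAC1, ARRDC1 and WSB2, which encode a transmembrane protein, a ubiquitin ligase subunit, an arrestin domain protein and a SOCS box protein, and in POC1B, a centriolar protein. TMEM50B PB.5524.2 lay between 40.3% and 53.2% in BMI and between 13.3% and 38.3% in DSE, without overlap (-21.4 points, SE 3.41, adjusted p = 0.00727). The other 4 genes had overlapping libraries and differences of -19.5 points (UBAC1), 18.1 points (ARRDC1), -17.6 points (WSB2) and 22.3 points (POC1B). The ARRDC1 difference was 32.4 points in the bulbourethral gland, 10.6 in the vesicular gland and 11.4 in the prostate gland. For ARRDC1 ENSSSCT00000058193 it was 6.80 points within the isoforms supported by Iso-seq (adjusted p = 0.552), and it missed the threshold without the bulbourethral gland (adjusted p = 0.486). The call of ARRDC1 was lost without DSE_BG_1, DSE_BG_3, BMI_BG_2 or BMI_BG_3 (adjusted p up to 0.0538). The call of POC1B was lost without any of 15 libraries (adjusted p up to 0.0903).

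Of the 25 leading isoforms, 22 passed whichever single library was left out. When all libraries of a gland were left out, 20 of the 25 missed the threshold without the bulbourethral gland, 17 without the vesicular gland and 12 without the prostate gland. Without the 5 libraries of low correlation, 13 passed, and the other 12 were those of IL17B, CNIH1, STK24, PRICKLE4, CCDC9, ACOX3, POC1B, TYK2, EEF1AKMT1, TMEM50B, ARRDC1 and PPIH. These 12 kept their sign, and differences such as those of CNIH1 (-34.4 points, against -35.9 with all libraries), TMEM50B (-21.3 and -21.4) and PPIH (-18.1 in both) stayed near their size, while that of IL17B was 34.1 points against 42.7.

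Called isoforms also came from 6 genes without a symbol, described here after their values were seen, and 4 of the 6 lie between positions 22824426 and 22959510 of chromosome 7 (Sscrofa11.1), where RefSeq places the class I genes SLA-1, SLA-2, SLA-3 and SLA-5 of the major histocompatibility complex. Class I molecules present peptides to cytotoxic T cells. In ENSSSCG00000052432, which overlaps SLA-2, the mean share of PB.17407.37 was 90.7% in BMI and 29.2% in DSE, while PB.17407.28 had 0.0792% and 50.9%. The full-length reads described further on did not show this exchange: PB.17407.37 took 1 of 211 reads of the gene in BMI and 1 of 129 in DSE, and PB.17407.28 took 202 of 211 (95.7%) and 118 of 129 (91.5%). The difference of PB.17407.37 was -61.4 points in the accessory glands, -89.4 points in the testis and -87.8 points in the epididymis. Class I genes are near-identical and highly polymorphic, so the assignment of reads to their isoforms is uncertain.

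**Figure D2:**
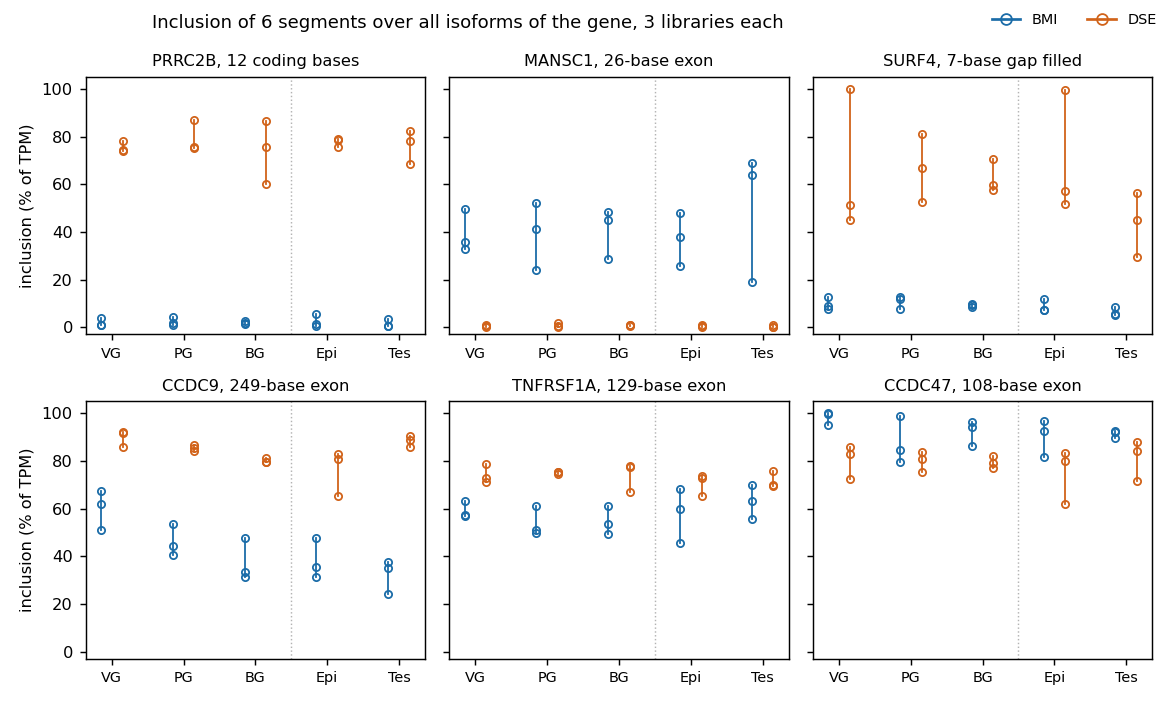
Inclusion of 6 segments (vertical axis, percent of the TPM of the gene's isoforms that span the site) in each tissue and breed, with 1 point for each of 3 libraries and a line over their range; the dotted line parts the accessory glands (VG, PG, BG) from epididymis (Epi) and testis (Tes). In PRRC2B, MANSC1, SURF4 and CCDC9 the points of the breeds are apart in all 5 tissues, while in TNFRSF1A and CCDC47 they overlap in some tissues.

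The direction was the same in all 3 glands. All 83 isoforms had 1 sign in the 3 glands, which follows in part from a test of their mean, and 67 differed by 10 points or more in each. Taken 1 gland at a time, 30 isoforms passed in the vesicular gland (0.0681%), 31 in the prostate gland (0.0704%) and 19 in the bulbourethral gland (0.0431%). The vesicular gland count was unstable: it ran from 13 (without BMI_BG_2) to 67 (without BMI_VG_1) when 1 library was left out, and was 16 with the replicate block. The bulbourethral gland count was 12 with the block. PRRC2B PB.2174.143, SURF4 PB.2185.12 and both MANSC1 isoforms passed in each gland alone. The interaction of breed and gland passed for 10 isoforms (0.0227%), none of them among the 83. This count ran from 17 to 56 when 1 library was left out and was 0 among isoforms with a mean share of 5% or more, so it does not show that the difference was equal in the glands. The lowest adjusted p of the interaction among the named isoforms was 0.727.

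The epididymis and testis, whose libraries the test had not used, gave the same directions for most isoforms. In the epididymis all 83 isoforms were measured and 76 had the sign of the accessory glands (91.6%), against 48.7% of 12834 uncalled isoforms with a mean share of 5% or more. In the testis 71 were measured and 65 had the same sign (91.5%), against 53.3% of 11883. Differences of 10 points or more in the same direction were seen for 56 isoforms in the epididymis and 48 in the testis. The libraries did not overlap, in that direction, for 53 isoforms in the epididymis (7.29% over all isoforms there, in either direction) and 51 in the testis (11.6%). The labels do not say whether these organs came from the boars that gave the glands.

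With 3 libraries against 3, few isoforms passed in either organ: 11 of 66385 in the testis (0.0166%), of which 3 were among the 83, and 0 of 57110 in the epididymis by limma, where 1380 had an unadjusted p below 0.05. PRRC2B PB.2174.143 passed in the testis, with -60.9 points (adjusted p = 0.0446). Some named genes did not carry over. The IL17B isoform differed by 5.57 points in the epididymis, the POC1B isoform by -0.592 points there, and the DHRS1 isoform by -1.69 points in the testis. For NUP58 ENSSSCT00000052216 the sign was reversed in both organs, at -13.6 points in the testis and -6.16 points in the epididymis.

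**Figure D3:**
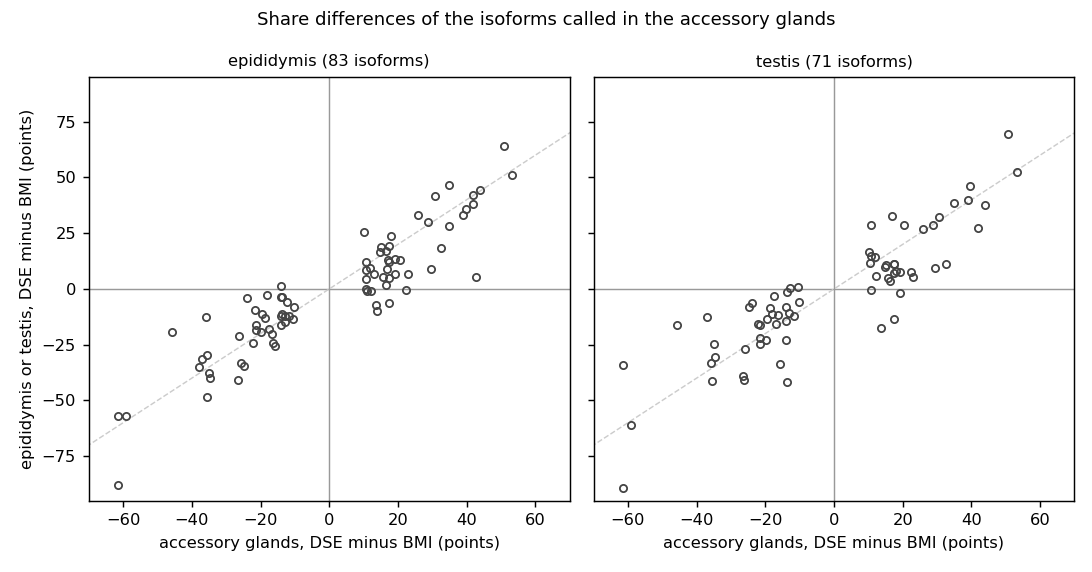
Breed difference of each called isoform in the accessory glands (horizontal axis, percentage points, DSE minus BMI) against that in epididymis (left, 83 isoforms) or testis (right, 71 isoforms) on the vertical axis; the dashed line marks equal differences. Most points, 76 on the left and 65 on the right, lie in the quadrants of equal sign.

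The full-length reads of the Iso-seq libraries gave a second readout of the same isoforms, with 1 library for each breed and gland and therefore without a test. For 52 of the 83 isoforms the gene had 10 or more reads in each breed, summed over the 3 glands. The direction was that of the RNA-seq shares in 35, opposite in 13, and 4 isoforms had no reads. The minimum applied to the gene, so some directions rest on very few reads of the isoform. Examples are CYB561 PB.3533.170 (same direction, 1 of 258 in BMI and 1 of 198 in DSE) and SFXN2 PB.6730.6 (opposite, 1 of 82 and 0 of 114). Among the 13 were TRAPPC4 PB.19793.82, with 12 of 26 reads in BMI and 6 of 23 in DSE, ARRDC1 ENSSSCT00000058193, with 37 of 43 and 45 of 57, and ANKRD10 PB.3292.9, with 32 of 53 (60.4%) and 30 of 49 (61.2%). ANKRD10 ENSSSCT00000051194, at 30.1% to 61.5% of the TPM in DSE, had 0 of 53 and 0 of 49 reads. Over the 7150 isoforms with a mean share of 5% or more, reads of their own and enough reads of the gene, the direction was the same in 53.5%. Isoforms without reads, kept among the 52, were left out there.

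MANSC1 PB.14720.4 took 86 of 207 MANSC1 reads in BMI (41.5%, exact binomial interval 34.8% to 48.6%) and 0 of 150 in DSE (0, up to 2.43%). No read of this isoform came from the BMI prostate library (0 of 30 reads), against 8 of 23 in the vesicular gland and 78 of 154 in the bulbourethral gland. PB.14720.1, with a median RNA-seq share of 0 in BMI, took 115 of the 207 reads in BMI (55.6%), among them 30 of 30 in the prostate gland, and 149 of 150 in DSE (99.3%). CNIH1 PB.1439.1 took 94 of 110 reads in BMI and 82 of 161 in DSE, and its counterpart PB.1439.2 took 16 and 79 reads. All 16 BMI reads of PB.1439.2 came from the prostate gland (16 of 31 reads), with 0 of 36 in the vesicular gland and 0 of 43 in the bulbourethral gland. TMEM50B PB.5524.2 took 114 of 133 and 109 of 176 reads, and ALAD PB.2015.2 took 22 of 31 and 11 of 29. In the BMI vesicular, prostate and bulbourethral gland these were 35 of 37, 17 of 30 and 62 of 66 reads for TMEM50B and 11 of 14, 1 of 7 and 10 of 10 for ALAD. In all 4 genes the isoform that was higher in BMI thus had its lowest share of BMI reads in the prostate library. CNIH1 PB.1439.1 took 15 of 31 reads there. In the DSE prostate library these isoforms took 0 of 40 (MANSC1), 32 of 68 (CNIH1), 45 of 72 (TMEM50B) and 5 of 7 reads (ALAD). In the prostate gland the breeds were thus equal, near each other or reversed, and the higher summed share in BMI came from the other glands. These intervals cover counting error only.

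SURF4 was read differently by the assays. PB.2185.12, the leading isoform of BMI in RNA-seq, took 60 of 678 full-length reads in BMI (8.85%, interval 6.82% to 11.2%) and 127 of 576 in DSE (22.0%, interval 18.7% to 25.7%), a direction opposite to that of the RNA-seq shares. Of the 60 BMI reads, 59 came from the prostate gland, where SURF4 had 194 reads, and 0 of 160 from the vesicular gland. In DSE the isoform had reads in all 3 glands, with 66 of 308, 16 of 135 and 45 of 133 in vesicular, prostate and bulbourethral gland. PB.2185.1 took 596 of the 678 reads in BMI and 441 of the 576 in DSE.

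**Figure D4:**
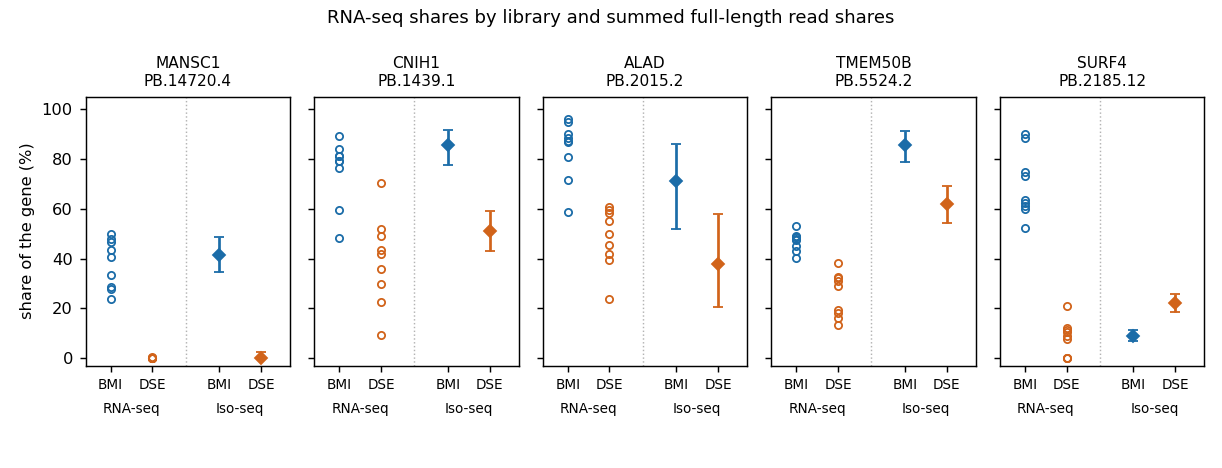
Share of 5 isoforms (vertical axis, percent of the gene) by RNA-seq, with 1 circle for each of 9 libraries a breed, and by Iso-seq, with 1 diamond for each breed over 3 summed libraries and bars for the exact 95% binomial interval. With the 3 glands summed, MANSC1, CNIH1, ALAD and TMEM50B are higher in BMI by both assays, which the prostate Iso-seq libraries alone do not show. SURF4 PB.2185.12 is higher in BMI by RNA-seq and higher in DSE by Iso-seq.

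The exchanged segments were compared with the splice signals of the reference genome. Of the 87190 distinct introns of the annotation read on chromosomes, 91.0% began and ended with GT-AG, GC-AG or AT-AC. Among the 23 named pairs on assembled chromosomes, 12 (52.2%) differed by at least 1 intron without such ends, against 25.6% of 3724 pairs made of the 2 most abundant isoforms of genes without a called isoform. The 7-base gap of SURF4 has tg and cc at its ends, and the 12-base PRRC2B extension places the start of the BMI intron at ca inside the CAG run. The removed segments of ANKRD10 (29 bases), CNIH1 (304 bases), STK24 (224 bases) and TNFRSF1A (28 bases), and the intron beside the MANSC1 exon, also lack such ends. The pairs of TRPT1, TYK2, EEF1AKMT1 and PPIH differ by introns without such ends as well. In TRPT1 these join most of the pieces of PB.9976.3 past the end of its counterpart. Whether the genomes of the breeds differ at these places was not tested.

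Both isoforms of the pair had only canonical ends at the introns that differ in CCDC9, CCDC47, TMEM50B, PRICKLE4, TRAPPC4, DHRS1, POC1B, IL17B, WSB2, ALAD and NUP58. The coding exons of TNFRSF1A (129 bases) and ACOX3 (75 bases) also had canonical ends, but their pairs differ by a further intron that lacks such ends. The differing segments include coding exons of CCDC9 (249 bases), CCDC47 (108 bases) and TMEM50B (58 bases) and noncoding exons of ALAD and NUP58. The exons of CCDC9, TNFRSF1A, CCDC47 and ACOX3 are multiples of 3 and leave the reading frame of the flanking exons unchanged, while the 58 bases of TMEM50B are not.

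Iso-seq isoforms made up 60 of the 83 called isoforms (72.3%), against 73.2% of all isoforms tested and 63.0% of those with a mean share of 5% or more. An intron without canonical ends was present in 18 of 76 called isoforms on chromosomes (23.7%), against 16.4% of all and 12.9% of those with a mean share of 5% or more. Nonsense-mediated decay, which removes mRNAs with an early stop codon, was predicted for 5 of the 60 called Iso-seq isoforms (8.33%), against 20.5% of Iso-seq isoforms with a mean share of 5% or more, and all 5 were lower in DSE. By position, the unplaced scaffold AEMK02000682.1, which holds UBAC1 and ARRDC1, had called isoforms in 6 of its 38 member genes (15.8%), against 1.31% over all member genes.

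Gene lists of splicing and of gland function held no called isoform, which is near the share called over all isoforms (0.188%) and so is no result about the lists. SURF4, TRAPPC4, CCDC47 and CNIH1 were not on the list of the secretory pathway. None of 727 isoforms of 37 splicing regulators passed by limma, and 35 had an unadjusted p below 0.05 (4.81%, against 7.76% over all isoforms tested). The largest difference there was in CLK1, a kinase of splicing factors, whose PB.7698.14 had mean shares of 35.8% in BMI and 21.8% in DSE (adjusted p = 0.748). The targets of epithelial and mesenchymal splicing gave 0 of 727 isoforms in 33 genes, with 35 below an unadjusted p of 0.05, and the secretory pathway gave 0 of 670 in 46 genes, with 38 below it. HSPA5, the main chaperone of the endoplasmic reticulum, had PB.2098.5 at 76.4% and 94.7% (adjusted p = 0.748).

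Seminal plasma and secretory proteins had 6 member genes and 59 isoforms, of which 4 had an unadjusted p below 0.05. Counts below an unadjusted p of 0.05 were 1 of 55 for innate immune genes, 8 of 137 for xenobiotic and glutathione metabolism, 12 of 229 for the respiratory chain and 6 of 222 for ribosomal proteins. Genes of antigen processing had 11 of 103 (10.7%). This list was matched by symbol, so it left out the class I genes without a symbol described above, which held called isoforms. On the list, CD74, the invariant chain of class II molecules, had PB.11472.241 at 91.3% in BMI and 82.0% in DSE (adjusted p = 0.000283). The difference of -9.38 points was under the 10-point minimum. Marker genes had 13 of 99 isoforms for secretory epithelium, 4 of 86 for smooth muscle, 0 of 99 for fibroblasts and 4 of 22 for endothelium. The smooth muscle gene TAGLN had PB.19774.1 at 32.7% and 52.2% (adjusted p = 0.304). Markers of skeletal muscle, of plasma and B cells, and of T cells and macrophages had no member gene.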

How the data were processed

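The deposited TPM values were made by the authors, who quantified RNA-seq reads with Salmon (version 1.9.0 in the submitters' processing notes) on Ensembl transcripts of Sscrofa11.1 joined with their Iso-seq isoforms other than full or incomplete matches of an Ensembl transcript; those isoforms were built from the reads of both breeds together. The Iso-seq counts were deposited by the authors as full-length read counts per isoform and library. Reads of full matches were given to the matched Ensembl transcript. Reads of incomplete matches, which are not in the joined annotation, were not counted, so the read totals of genes leave them out. The labels state rRNA depletion for the RNA-seq libraries and the study's methods state poly-A selection. TPM keeps no read depth, so no interval was set on single shares and shares of low genes are less precise, which is why a gene TPM of 5 was required.

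Shares were fitted with limma 3.58.1 (R 4.3.3; eBayes with trend and robust moderation) on gland and breed in 18 libraries, and p-values were adjusted by Benjamini-Hochberg over all 44045 isoforms. An isoform was called at an adjusted p below 0.05 and a difference of 0.1 in the share. Glands were tested from 6 group means, the interaction by an F test, and testis and epididymis each in their own 6 libraries. The scripts were tested on simulated shares. Named genes were the 25 with a symbol and the largest difference among isoforms called with and without BMI_PG_2, each with its counterpart in the other direction. Gene-level tests used log2(TPM + 1) and called a log2 difference of 1. The members, lists and tests were chosen with earlier results of these data known, and leaving out the 5 libraries of low correlation was chosen after seeing the data. The small RNA-seq files were not used here. Sequences came from the RefSeq genome of Sscrofa11.1; the scaffold of UBAC1 and ARRDC1 was not read.

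Replicate numbers were not taken to pair the samples. Deviations from the group means of same-numbered libraries of the breeds correlated above 0.1 in 3 of 9 pairs (median 0.008, against 0.001 for other numbers). Between glands of one breed this held for 5 of 18 same-numbered pairs (median 0.071) and 11 of 36 others (median -0.019).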

Additional observations from a re-analysis of the deposited data

Results flagged for a closer look

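Shares of named isoforms were searched for single libraries far from the other 8 of their breed, by Dixon's criterion, and 10 were found in 97 groups, where chance marks about 1 in 20 groups. SURF4 PB.2185.1 had 98.5% in DSE_VG_1, against 56.6% in the next DSE library. IL17B ENSSSCT00000015779 had 33.2% in DSE_BG_3, against 11.9%. TRAPPC4 PB.19793.80 had 46.9% in BMI_PG_3, against 29.7%, and DHRS1 PB.17994.2 had 47.7% in the same library, against 34.8%. PPIH PB.17096.18 had 50.4% in BMI_PG_1, against 35.2%. WSB2 ENSSSCT00000081554 had 29.2% in DSE_VG_2, against 21.6%. CCDC9 PB.15836.3 was at 0.0 in BMI_PG_2, against 30.1% in the next lowest BMI library.

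The other 3 stand in groups near 0: TYK2 PB.10570.83 at 3.93% in DSE_VG_3 (next 0.608%), MANSC1 PB.14720.4 at 0.684% in DSE_PG_2 (next 0) and EEF1AKMT1 PB.2816.15 at 0.629% in BMI_VG_2 (next 0.138%).

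The breed difference itself differed between glands for 10 isoforms, by the F test of the interaction. RGL2 PB.17474.55 differed by -4.58 points in the vesicular gland and 0 in the others (adjusted p = 1.61e-05), TUBGCP6 PB.14059.9 by 13.6, 0 and -0.642 points in vesicular, prostate and bulbourethral gland (adjusted p = 0.000191), and FBXO31 PB.15176.5 by 13.2, 0.588 and -0.583 points (adjusted p = 0.00594). The other 7, in POMT1, CRACR2B, CMPK1, CD276, EIF3H, ACTR3 and DOCK9, had differences between -5.27 and 4.13 points in each gland. These genes are named after their values were seen.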

How the results depend on the processing

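All measured isoforms of the 83 kept their sign under every alternative, and the counts of calls moved. The 83 isoforms in 63 genes became 132 isoforms with a mean share of 5% or more (68 higher and 64 lower in DSE), 170 in 122 genes with a gene TPM of 1 or more (85 and 85), 179 in 140 genes without a minimum difference (87 and 92) and 38 in 26 genes with a minimum of 20 points (18 and 20). Without the prostate gland 38 isoforms passed in 31 genes (16 and 22), without the vesicular gland 46 in 34 (22 and 24), and without the bulbourethral gland 20 in 16 (10 and 10). Without the 5 libraries of low correlation and BMI_PG_2, 51 passed in 35 genes, 21 of them higher in DSE. Leaving out 1 library at a time gave 68 to 100 isoforms.

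Shares averaged over the glands for each breed and number, 3 against 3, gave 0 calls by limma in either direction and in 0 genes. There 2794 isoforms had an unadjusted p below 0.05, among them all 83 with the same sign. With the number as a replicate block, 81 isoforms passed, of which 75 were among the 83; within single glands the block gave 16 isoforms in the vesicular and 12 in the bulbourethral gland, and 6 with an interaction. Under the block POC1B PB.15058.3 (adjusted p = 0.0505), TRAPPC4 PB.19793.82 (0.0544) and NUP58 ENSSSCT00000052216 (0.0609) missed the threshold among the named isoforms; their adjusted p over all alternatives ran from 0.00997 to 0.489, 0.000551 to 0.466 and 0.0107 to 0.448.

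The vesicular gland count of 30 ran from 13 to 67 without 1 library, lowest without BMI_BG_2 and highest without BMI_VG_1. The bulbourethral count of 19 became 33 on the arcsine scale. The interaction count of 10 ran from 17 to 56 without 1 library, highest without DSE_VG_1, and was 0 with a mean share of 5% or more. The cause was not tested.

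Of 909 values of leading isoforms under alternatives, 769 stayed on their side of the threshold and 140 missed it, 25 of them with the 3 against 3 means. Within the isoforms supported by Iso-seq, the differences of SURF4 PB.2185.1, NUP58 ENSSSCT00000052216 and CCDC47 PB.3533.131 grew to 72.9, 33.5 and -37.4 points. Depth per isoform is unknown from TPM.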
